A study of Oryza sativa Japonica Group with 6 samples.

Results

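The amylase/trypsin inhibitors and seed allergens of rice are small proteins of the grain, and 11 genes whose description in the deposited gene table names a seed allergenic protein or an alpha-amylase inhibitor were taken, of 55983 genes listed. The rule read the description alone and no expression values, but it was chosen with earlier results of these data known. Grains of the sgs3 mutant (3 libraries, genotype given as mutant and treatment as EMS) were compared with grains of the wild-type line Zhenong 34 (WT, 3 libraries, untreated control). EMS (ethyl methanesulfonate) is a mutagen known mainly for single-base changes, and both groups are rice of the Japonica Group. Grain stage, the mutated gene and the number of mutant lines are absent from the labels. Nor do the labels state that a group's libraries came from different plants, so all p-values reflect spread between libraries that may be technical in origin.

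Cereal alpha-amylase/trypsin inhibitors are cysteine-rich proteins held together by disulfide bonds, and they belong to the same superfamily as many prolamins, the lipid transfer proteins and the 2S albumins. Members of the family can bind the alpha-amylases or trypsin-like proteases of insects and other animals, and they accumulate in the starchy endosperm while the grain fills. In rice the RAG and RA proteins are known as major grain allergens. The alpha-amylase/subtilisin inhibitor has another fold, that of the Kunitz inhibitors, and acts on a plant alpha-amylase and on the bacterial protease subtilisin.

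Of the 11 genes, 10 lie on chromosome 7 by their locus names and carry the domain that the table calls Tryp_alpha_amyl. In 3 of these the table lists a Gliadin domain as well, namely LOC_Os07g11360, LOC_Os07g11380 and LOC_Os07g11510. The remaining gene, LOC_Os04g44470 on chromosome 4, is the alpha-amylase/subtilisin inhibitor RASI and carries a Kunitz domain. The table describes 3 genes as seed allergenic protein RAG2 and 2 as RAG1. For LOC_Os07g11410, described as RAG2, the Swiss-Prot entry listed beside it is another rice inhibitor, RA16. The 2 genes described only as alpha-amylase/trypsin inhibitor, LOC_Os07g11630 and LOC_Os07g11650, are listed with the Swiss-Prot entries for 17kDa alpha-amylase/trypsin inhibitors 1 and 2 of rice. LOC_Os07g12080 (described as CMa) and LOC_Os07g12090 (described as alpha-amylase inhibitor 4) have their nearest Swiss-Prot entries in finger millet and barley. Several genes share a description, their sequence likeness was not measured here, and reads may be split among copies, so the value of each copy is uncertain.

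Expression was given as TPM (a level per transcript length, relative to the library's total). The number of reads behind a TPM value is unknown, and listed TPM summed to between 967526 and 994306 per library. A gene was tested with limma on log2(TPM + 1) if it reached 1 TPM in at least 3 libraries, which 16352 genes and 10 of the 11 inhibitor genes did. Differences are given as log2 fold changes of sgs3 over WT on that scale. Each gene was also tested after median-of-ratios scaling between libraries, which moved the median of all tested genes to -0.01, against -0.86 on TPM as deposited. A gene at 0 on TPM thus lay above most genes. WT replicate 1 stood apart from the other wild-type libraries, and the fold changes of the inhibitor genes are given with and without it.

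The inhibitor transcripts together took a larger share of every sgs3 library than of any wild-type library. They made up 14.0%, 15.8% and 10.1% of listed TPM in sgs3 replicates 1, 2 and 3, against 2.42%, 8.82% and 5.87% in WT replicates 1, 2 and 3. The group means were 13.3% ± 2.92 in sgs3 and 5.71% ± 3.20 in WT (SD, n = 3 each). No test was made of this sum, because the set was chosen with earlier results of these data known. Within sgs3 replicate 3 was lowest, and within WT replicate 1 was lowest, at less than every other library. On the log2 scale the ratio of the mean summed TPM was 1.23, and it was 2.21 after scaling. Without WT replicate 1 it was 0.87 on TPM.

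**Figure D1:**
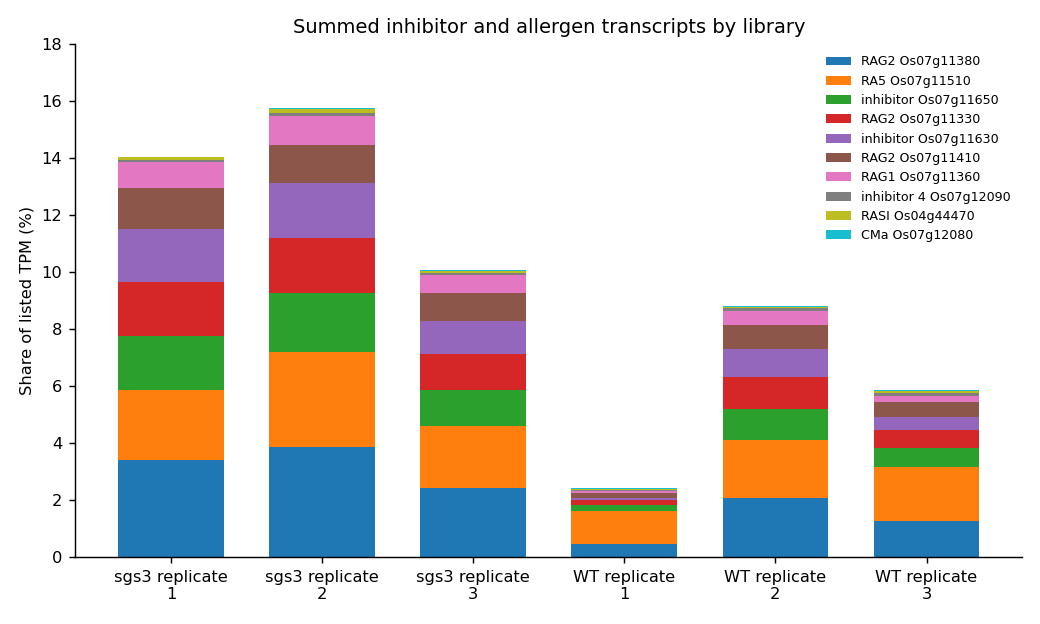
Share of listed TPM (%) taken by the 10 tested inhibitor and allergen genes, stacked by gene, in each library of sgs3 (left) and WT (right). The sgs3 libraries reach 14.0%, 15.8% and 10.1%, and the WT libraries 2.42%, 8.82% and 5.87%.

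These genes were among the most abundant transcripts of the grain. Between 4 and 6 of them were among the top 20 genes of each sgs3 library, and 2 or 3 in each WT library. The 7 abundant genes of chromosome 7, from LOC_Os07g11330 to LOC_Os07g11650, held between 95.8% and 98.7% of the summed inhibitor TPM in every library.

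By limma's test with Benjamini-Hochberg adjustment over all genes, none of the 10 tested genes passed an adjusted p of 0.05 on TPM or after scaling. Of all tested genes, 1.55% passed as higher and 26.3% as lower on TPM, and 1.6% as higher and 1.03% as lower after scaling. At an unadjusted p under 0.05, 3 of the 10 genes were higher on TPM and 6 after scaling, beside 2.65% and 15.4% of all tested genes. None of the 10 was lower at that level, beside 48.9% on TPM and 17.5% after scaling. For 8 of the 10 genes every sgs3 library lay above every WT library, on TPM and after scaling, beside 3.68% of all tested genes on TPM and 17% after scaling. The reverse order, beside 52.6% and 20.4%, was found for none of them. The log2 fold change was above 0 for 9 of the 10 genes on TPM and for all 10 after scaling, beside 12.6% and 49.3% of all tested genes. The median over the 10 genes was 1.56 on TPM and 2.65 after scaling. The counts over all genes depend on scaling and on single libraries, since leaving out 1 library at a time gave 5 to 383 genes that rose and 9 to 7275 that fell on TPM. The counts of inhibitor genes describe the set as chosen, and the genes are not independent of each other.

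Among the seed allergens, LOC_Os07g11380, described as RAG2, was the most abundant gene of the set. It had 33783, 38475 and 24271 TPM in sgs3, against 4679, 20406 and 12536 TPM in WT. The groups did not overlap, the nearest libraries being sgs3 replicate 3 and WT replicate 2. The log2 fold change of 1.57 ± 0.82 (SE) did not pass limma's test (adjusted p = 0.142), nor did 2.67 ± 1.16 after scaling (adjusted p = 0.159). It ranked between 5 and 7 among all genes in the sgs3 libraries and between 12 and 14 in the WT libraries.

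The neighbouring RAG2-annotated gene LOC_Os07g11330 had 18850.5, 19164 and 12607 TPM in sgs3, against 1507, 11185 and 6415 TPM in WT. Its groups did not overlap, with a log2 fold change of 1.80 ± 0.85 (SE; adjusted p = 0.114, limma). The third gene of that description, LOC_Os07g11410, had 14129.7, 13340.5 and 9683 TPM in sgs3, against 1691, 8365 and 5184 TPM in WT. Here too the groups were apart, at a log2 fold change of 1.55 ± 0.75 (SE; adjusted p = 0.121, limma). After scaling these values were 2.89 and 2.64, with limma adjusted p-values of 0.135 and 0.129. All 3 RAG2-annotated genes had the same order of libraries within WT, with replicate 2 highest and replicate 1 lowest.

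Of the 2 RAG1-annotated genes, LOC_Os07g11360 had the smallest p on TPM among the tested inhibitor genes. It had 9224, 9810.1 and 6248 TPM in sgs3, against 569, 4555 and 2134 TPM in WT. Every sgs3 library was higher than every WT library, and the mean was 3.48 times as high. Neither its log2 fold change of 2.22 ± 0.80 (SE) on TPM nor that of 3.32 ± 1.07 after scaling passed limma's test (adjusted p = 0.0605 and 0.0978). The other RAG1-annotated gene, LOC_Os07g11320, was listed at 0.16, 0.29 and 0 TPM in sgs3 and at 0 in each WT library, and it was not tested. Transcripts were therefore assigned almost wholly to 1 of the 2 copies.

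RA5 (LOC_Os07g11510), the second most abundant gene of the set, differed least among the abundant genes of chromosome 7. It had 24425, 32956 and 21515 TPM in sgs3, against 11134, 20351 and 18690.0 TPM in WT. Its groups did not overlap, but the lowest sgs3 library lay close to the highest WT library. On the log2 scale it was higher by 0.68 ± 0.73 (SE; adjusted p = 0.452, limma), or by 1.77 ± 1.05 after scaling (adjusted p = 0.268). Among all genes RA5 ranked between 7 and 12 in the sgs3 libraries and between 4 and 13 in the WT libraries. In WT replicate 1, where RA5 and the other abundant genes of chromosome 7 were each lowest, RA5 had the highest TPM of the set.

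The neighbouring amylase/trypsin inhibitor genes LOC_Os07g11630 and LOC_Os07g11650 had the same order of libraries within WT as the RAG2-annotated genes. LOC_Os07g11630 had 18401, 19199.7 and 11282 TPM in sgs3, against 772, 9681 and 4409 TPM in WT. Its log2 fold changes, 2.31 ± 0.95 (SE) on TPM and 3.40 ± 1.25 after scaling, were the largest of the 10 tested genes (adjusted p = 0.0822 and 0.119, limma). LOC_Os07g11650 had 19022, 20632 and 12368 TPM in sgs3, against 2122, 10636 and 6367 TPM in WT. Here the log2 fold change came to 1.69 ± 0.78 (SE; adjusted p = 0.108, limma), or 2.79 ± 1.07 after scaling (adjusted p = 0.128). In both genes the groups did not overlap. Over the 7 abundant genes of chromosome 7 the coefficient of variation was 19.2% to 26.8% in sgs3 and 29.4% to 90.4% in WT.

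**Figure D2:**
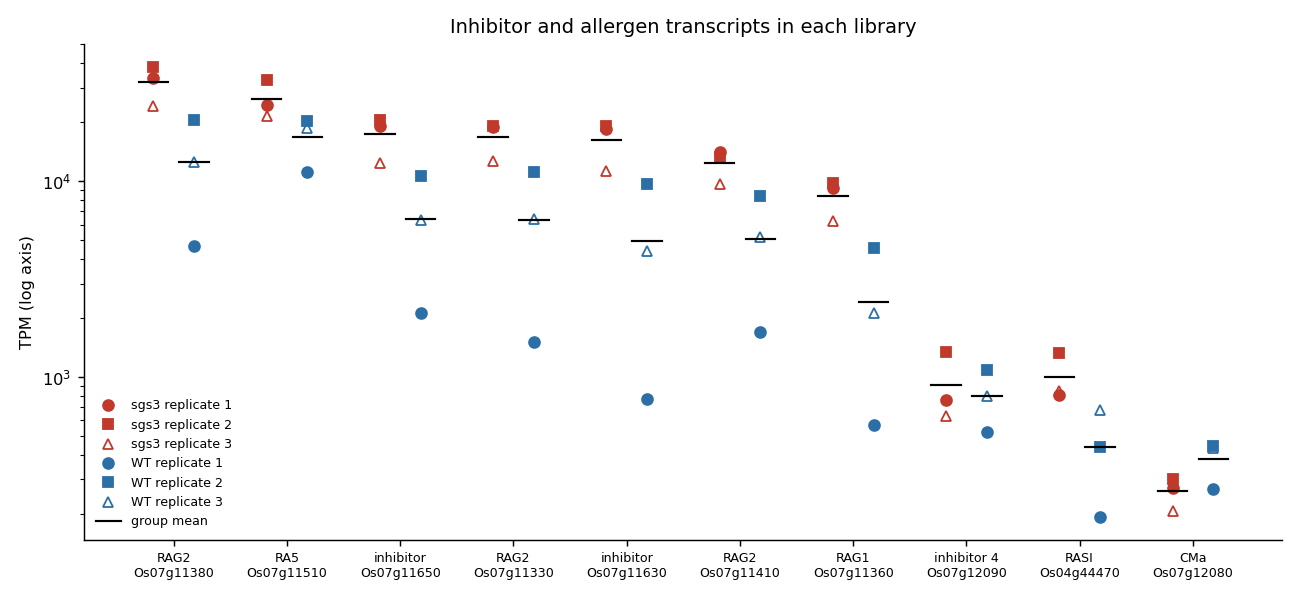
TPM (log axis) of the 10 tested inhibitor and allergen genes in every library, with sgs3 (red) left of WT (blue), 1 symbol per replicate and a line at the group mean. For 8 genes all sgs3 points lie above all WT points, and for LOC_Os07g12090 and LOC_Os07g12080 the groups overlap.

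RASI, which lies away from the others on chromosome 4 and has the Kunitz fold, had 812, 1322 and 851 TPM in sgs3, against 193, 441 and 679 TPM in WT. Its groups did not overlap, and its mean was 2.27 times as high in sgs3. Its order of libraries differed from that of the chromosome 7 genes, since WT replicate 3 and not replicate 2 was highest in WT. With a log2 fold change of 1.33 ± 0.55 (SE) on TPM and 2.42 ± 0.67 after scaling, it too missed the threshold of limma's test (adjusted p = 0.0840 and 0.0830).

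The 2 genes at the far end of the chromosome 7 stretch gave another picture. LOC_Os07g12080, described as CMa (a chloroform/methanol-soluble inhibitor), had 272, 303 and 206 TPM in sgs3, against 269, 447 and 435 TPM in WT. It was the 1 tested gene of the set with a lower mean in sgs3, at 0.679 of that in WT, and its groups overlapped through WT replicate 1. The sign of its log2 fold change depended on scaling, with -0.54 ± 0.40 (SE; adjusted p = 0.285, limma) on TPM and 0.55 ± 0.55 after scaling (adjusted p = 0.498). LOC_Os07g12090, alpha-amylase inhibitor 4, had 766, 1347 and 630.2 TPM in sgs3, against 524, 1081 and 801 TPM in WT. Its groups overlapped, and the log2 fold change was 0.17 ± 0.50 (SE; adjusted p = 0.784, limma), or 1.27 ± 0.66 after scaling (adjusted p = 0.216). Neither value shows that these genes were equal between the genotypes.

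**Figure D3:**
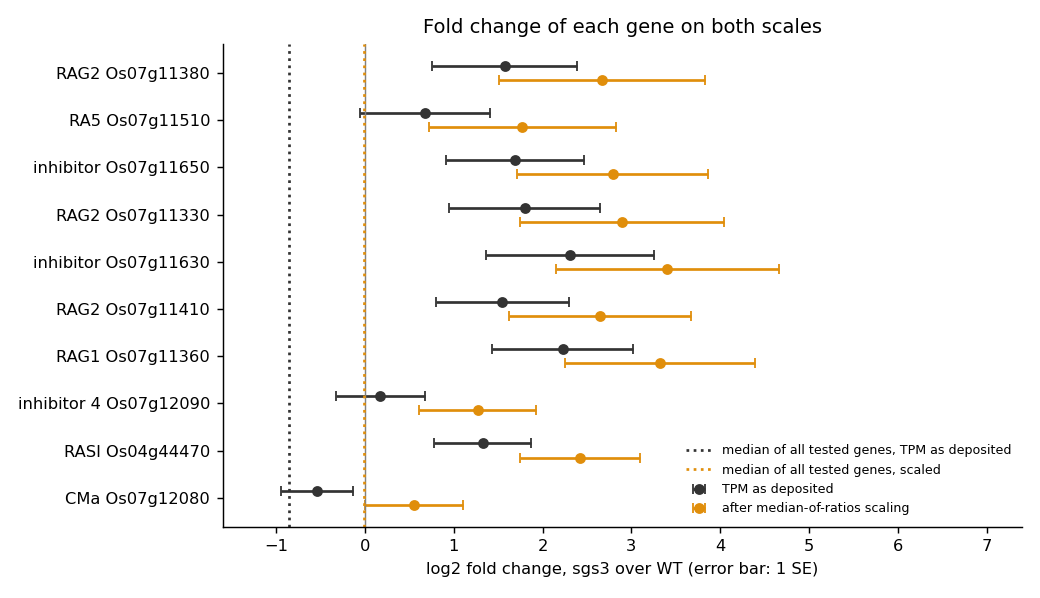
Log2 fold change, sgs3 over WT, of each tested inhibitor and allergen gene on TPM as deposited (dark) and after median-of-ratios scaling (orange), with bars of 1 SE and dotted lines at the medians of all tested genes (-0.86 and -0.01). Scaling moves every gene to the right and turns the sign of LOC_Os07g12080 only.

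Ratios between genes of the same library do not depend on scaling between libraries, so each gene was set against RA5, which was chosen for this after its values were seen. The ratio of CMa to RA5 was 0.0111, 0.00920 and 0.00958 in sgs3, against 0.0242, 0.0220 and 0.0233 in WT. It was close within each group and did not overlap between them, although CMa and RA5 each varied between libraries. The ratio of alpha-amylase inhibitor 4 to RA5 was 0.0314, 0.0409 and 0.0293 in sgs3, against 0.0470, 0.0531 and 0.0429 in WT. Here too the groups were apart, with the sgs3 libraries lower.

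The ratio of RAG1 (LOC_Os07g11360) to RA5 was higher in sgs3, with 0.378, 0.298 and 0.290 in sgs3, against 0.0511, 0.224 and 0.114 in WT. Of the 9 other tested genes, 5 had a higher ratio to RA5 in every sgs3 library than in any WT library, and 2 had a lower one. Over all tested genes these shares were 1.69% and 63.5%, so the lower ratios of CMa and of alpha-amylase inhibitor 4 were those of most genes. For LOC_Os07g11410 and RASI the ratios overlapped. In WT replicate 1, RA5 alone made up 47.5% of the summed inhibitor TPM, against 23.4% and 32.4% in WT replicates 2 and 3. In the sgs3 libraries it made up 17.5%, 21.1% and 21.6%. The makeup of the set was therefore closer between the sgs3 libraries than between the WT libraries.

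**Figure D4:**
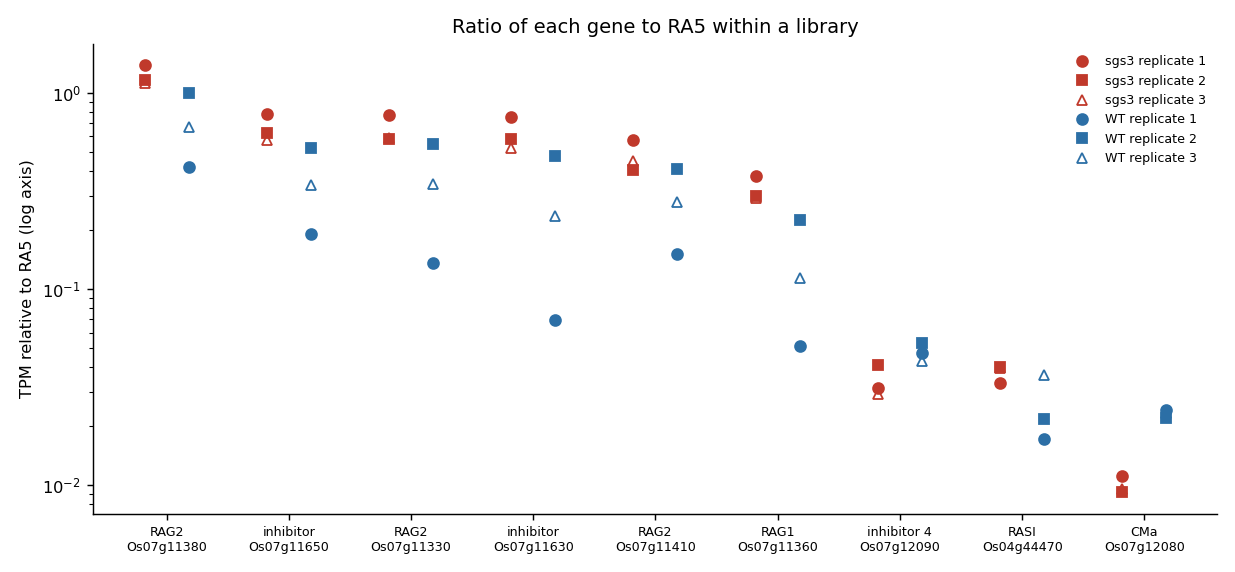
TPM of each inhibitor and allergen gene divided by that of RA5 in the same library (log axis), with sgs3 (red) left of WT (blue) and 1 symbol per replicate. The CMa ratios lie between 0.00920 and 0.0111 in sgs3 and between 0.0220 and 0.0242 in WT, and those of RAG1 (LOC_Os07g11360) between 0.290 and 0.378 in sgs3 and between 0.0511 and 0.224 in WT.

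The differences were smaller without WT replicate 1. Over the 8 genes whose groups did not overlap, the mean in sgs3 was 1.57 to 3.48 times that in WT, and 1.35 to 2.52 times without that library. Their log2 fold changes without it lay between 0.41 and 1.41, and the median of the 10 tested genes was 0.93. Without it the adjusted p-values of limma's test for these 10 lay between 0.0618 and 0.847. After scaling, the log2 fold changes of the 8 genes were 1.77 to 3.40 with all libraries and 1.29 to 2.28 without WT replicate 1. The median of the 10 tested genes was then 1.81, against 2.65, and limma's adjusted p-values lay between 0.139 and 0.913. Without WT replicate 2, 3 of the 10 genes passed as higher on TPM, beside 2.44% of all genes tested in that fit, namely LOC_Os07g11360 (log2 fold change 2.91, limma adjusted p = 0.0166), LOC_Os07g11630 (3.10, adjusted p = 0.0212) and LOC_Os07g11330 (2.41, adjusted p = 0.0441). After scaling none of the 10 passed without that library, beside 1.95% of all genes, and these 3 had limma adjusted p-values of 0.0670, 0.0767 and 0.0839. That library was the highest of WT for 9 of the 10 genes.

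The seed storage proteins were also higher in the sgs3 libraries in sum, but not each class. Prolamins, glutelins and globulins together held 40.8% to 46.1% of listed TPM in sgs3 and 5.97% to 34.9% in WT. The globulin list alone held 3.68%, 4.26% and 3.68% in sgs3, against 1.81%, 4.598% and 4.21% in WT, so it overlapped and WT replicate 2 was the highest library. Summed inhibitor TPM per prolamin TPM was 0.643, 1.003 and 0.560 in sgs3, against 1.70, 0.633 and 0.598 in WT, so the groups overlapped. Per glutelin TPM it was 0.683, 0.758 and 0.511 in sgs3, against 0.887, 0.539 and 0.431 in WT, and these overlapped too. WT replicate 1 had the highest ratio to prolamins and to glutelins. Per globulin TPM the groups did not overlap, with 3.81, 3.70 and 2.74 in sgs3, against 1.34, 1.92 and 1.40 in WT. These ratios were not tested.

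The defining markers of starchy endosperm were present in every library. Granule-bound starch synthase 1 (LOC_Os06g04200), which makes amylose, had 3833 ± 833 TPM in sgs3 and 2741 ± 578 TPM in WT (SD, n = 3 each). It and 8 other marker genes summed to 12925 to 17501 TPM in sgs3 and 13064 to 19233 TPM in WT, and none of the 9 passed limma's test on either scale. At an unadjusted p under 0.05, none passed on TPM and 2 passed as higher after scaling, beside 15.4% of all tested genes. The log2 fold change was above 0 for 2 of the 9 on TPM and for all 9 after scaling, beside 12.6% and 49.3% of all tested genes. The 9 genes include RISBZ1 (LOC_Os07g08420) and RPBF (LOC_Os02g15350), named here by locus and known in rice endosperm as activators of storage protein genes, which the table describes by similarity to factors of other plants. RISBZ1 had 104, 141 and 110.4 TPM in sgs3, against 104, 126 and 139 TPM in WT, and the groups overlapped on TPM. Its log2 fold change was -0.05 on TPM (adjusted p = 0.905, limma). After scaling it was 1.03 (limma, unadjusted p = 0.0380, adjusted p = 0.133). RPBF had 318, 401 and 346 TPM in sgs3, against 562, 558 and 547 TPM in WT. Every sgs3 library was lower on TPM, as for 52.6% of all tested genes. Its log2 fold change was -0.65 (adjusted p = 0.177 with limma), beside a median of -0.86 over all tested genes. The sign turned to 0.44 (adjusted p = 0.470) after scaling.

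Markers of embryo and aleurone (oleosins, late embryogenesis abundant proteins and dehydrins, 21 of 23 tested) summed to 3419 to 4360 TPM in sgs3 and 1145 to 6278 TPM in WT. None passed limma's test on either scale. At an unadjusted p under 0.05, 1 was lower on TPM and 2 were higher after scaling, beside 48.9% and 15.4% of all tested genes. Of the 21, 16 had a log2 fold change above 0 on TPM and 20 after scaling, beside 12.6% and 49.3% of all tested genes. Their median was 0.46 on TPM and 1.49 after scaling. Genes whose description names a photosystem or chlorophyll a-b binding, taken for green pericarp (32 of 94 tested), summed to 34.6 to 486 TPM in sgs3 and 52.0 to 454 TPM in WT. Of these 32, 2 fell and none rose on TPM by limma, beside 26.3% and 1.55% of all tested genes. The words also matched a carboxyl-terminal-processing peptidase (LOC_Os02g57060), which was among those that fell (limma adjusted p = 0.0436). After scaling none of the 32 passed. There 2 were higher and 1 lower at an unadjusted p under 0.05, beside 15.4% and 17.5% of all tested genes. Log2 fold changes above 0 were found for 16 of the 32 on TPM and for 27 after scaling, beside 12.6% and 49.3%. Cyclins and PCNA, taken for dividing cells (14 of 21 tested), summed to 82.4 to 178 TPM in sgs3 and 201 to 723 TPM in WT, so this sum was lower in every sgs3 library and highest in WT replicate 1. Single genes of this list differed in direction, since 2 rose and 3 fell on TPM by limma, beside 1.55% and 26.3% of all tested genes. After scaling 2 rose and none fell, beside 1.6% and 1.03%. Here 2 of the 14 had a log2 fold change above 0 on TPM and 5 after scaling, beside 12.6% and 49.3%. A cyclin-B1-2 gene (LOC_Os09g14590) rose, with 2.28, 2.20 and 4.69 TPM in sgs3, listed at 0 in each WT library (limma adjusted p = 0.0161 on TPM, 0.00131 after scaling). The most abundant of the list, another cyclin-B1-2 gene (LOC_Os02g55640), fell on TPM, with 67.1 ± 19.2 TPM in sgs3 and 221 ± 130.4 TPM in WT (SD, n = 3 each; limma adjusted p = 0.0450 on TPM, 0.281 after scaling). The part of cell makeup or grain stage in the inhibitor differences was not tested. In whole grains, more cells of a type and more RNA of a gene per cell cannot be told apart.

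The amylases of rice itself were weakly expressed in these grains, and animal enzymes, for which the family is known, are not measured here. Of 10 rice alpha-amylase genes, 4 were tested and none passed limma's test on TPM or after scaling. At an unadjusted p under 0.05, 2 of the 4 were lower on TPM and 1 was higher after scaling, beside 48.9% and 15.4% of all tested genes. Their TPM summed to 51.8 to 89.4 in sgs3 and 61.5 to 155 in WT, far below the inhibitors. The most abundant, alpha-amylase isozyme 3E (LOC_Os08g36900), had 19.7, 9.23 and 51.2 TPM in sgs3, against 1.63, 14.8 and 107 TPM in WT, with wide overlap. Alpha-amylase isozyme 3B (LOC_Os09g28420) had the smallest p of the 4. It was lower in every sgs3 library, as were 52.6% of all tested genes, with 3.64, 3.39 and 2.48 TPM in sgs3, against 5.26, 9.74 and 8.86 TPM in WT. The log2 fold change, -1.08 ± 0.35 (SE; adjusted p = 0.0505, limma) on TPM, was -0.17 after scaling (adjusted p = 0.807). Beta-amylases release maltose from starch, but the 8 tested genes of that name include LOC_Os03g22790 and LOC_Os07g47120, described as inactive. Of the 8, 1 fell on TPM, beside 26.3% of all tested genes, none rose, and none passed after scaling. At an unadjusted p under 0.05 after scaling, 1 was higher, the inactive LOC_Os07g47120, and 1 was lower, beside 15.4% and 17.5%. The gene that fell on TPM, a chloroplastic beta-amylase 3 (LOC_Os10g41550), had 0.927 ± 0.319 TPM in sgs3 and 8.78 ± 7.44 TPM in WT (SD, n = 3 each; limma adjusted p = 0.0436 on TPM, 0.104 after scaling).

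Inhibitors of proteases outside the set gave these counts. Of 25 tested genes described as Bowman-Birk inhibitors, serpins, cystatins and similar, 4 fell on TPM and none rose, beside 26.3% and 1.55% of all tested genes. None passed after scaling. There 2 were higher and 4 lower at an unadjusted p under 0.05, beside 15.4% and 17.5% of all tested genes. The list's median was -0.68 on TPM and 0.35 after scaling, on the log2 scale. The 4 that fell included a putative serpin (LOC_Os11g12410), with 1.25 ± 0.813 TPM in sgs3 and 6.36 ± 2.49 TPM in WT (SD, n = 3 each; limma adjusted p = 0.0436). The most abundant of the list, defensin-like protein P322 (LOC_Os03g03810), had 9064 ± 779 TPM in sgs3 and 8379 ± 462 TPM in WT (SD, n = 3 each). Of the seed storage proteins, 11 of 27 tested prolamin-list genes rose and 3 fell on TPM, beside 1.55% and 26.3% of all tested genes. After scaling 9 rose and none fell, beside 1.6% and 1.03%. Every sgs3 library lay above every WT library for 15 of the 27 on TPM and for 16 after scaling, beside 3.68% and 17% of all tested genes. The reverse order was found for 4 and 1, beside 52.6% and 20.4%. The prolamin list had a median of 2.16 on TPM. The most abundant, 13 kDa prolamin C (LOC_Os07g10580), had 62192 ± 11113 TPM in sgs3 and 23352 ± 20781 TPM in WT (SD, n = 3 each; limma adjusted p = 0.156). Prolamin PPROL 14E (LOC_Os05g26250), with the smallest p, rose, with 73.9, 47.7 and 51.1 TPM in sgs3, against 0, 0 and 0.1 TPM in WT (limma adjusted p = 2.06e-04). None of 13 tested glutelins passed limma's test on either scale, with a median of 0.83 on TPM. At an unadjusted p under 0.05, 1 was higher and 1 lower on TPM, beside 2.65% and 48.9% of all tested genes. After scaling 4 were higher at that level, beside 15.4%. The groups were apart, with sgs3 higher, for 7 of the 13 on TPM and for 8 after scaling, beside 3.68% and 17%. None was apart with sgs3 lower, beside 52.6% and 20.4%. In the lipid transfer and 2S albumin list 2 of 26 fell on TPM (median -0.36), beside 26.3% of all tested genes. After scaling 1 of the 26 rose, beside 1.6%. There 9 were higher and 2 lower at an unadjusted p under 0.05, beside 15.4% and 17.5% of all tested genes. The log2 fold change was above 0 for 10 of the 26 on TPM and for 22 after scaling, beside 12.6% and 49.3%. The medians of these lists were not tested against that of the inhibitors.

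**Figure D5:**
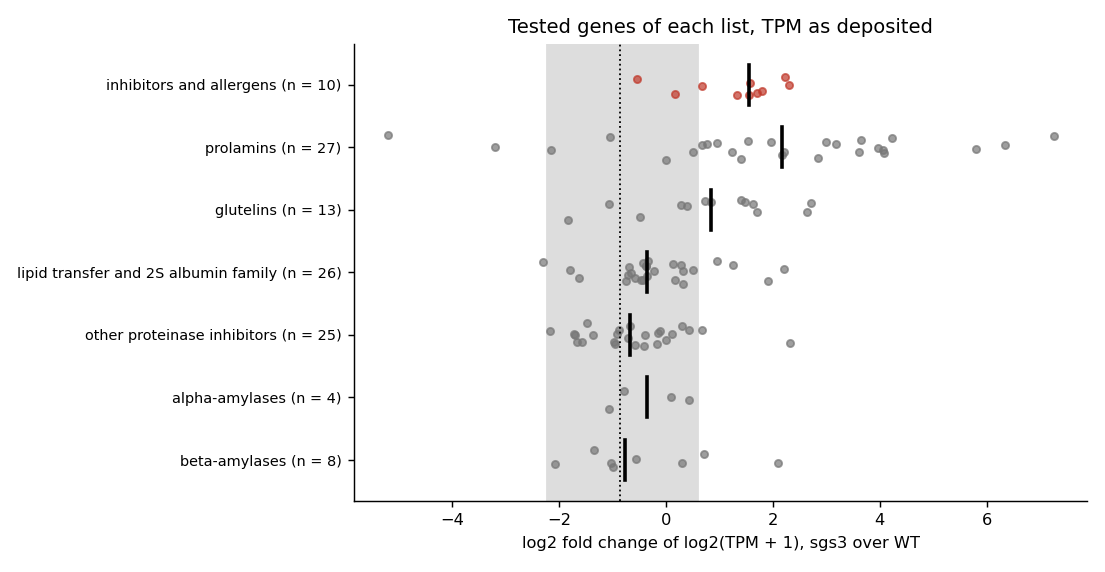
Log2 fold change of log2(TPM + 1), sgs3 over WT, of the tested genes of each list, with a thick line at the list's median, a grey band over the central 90% of all tested genes and a dotted line at their median, -0.86. The inhibitors and allergens have a median of 1.56, the prolamins 2.16 and the glutelins 0.83.

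The stretch of chromosome 7 loci from LOC_Os07g11310 to LOC_Os07g12090 holds 68 listed loci, of which 10 are of the set. Of the other 58, 32 were listed at 0 in every library and 8 were tested. Limma called 2 of these 8 on TPM, against 27.8% of all tested genes called in either direction, and none after scaling, against 2.64%, where 5 of the 8 were higher and 1 was lower at an unadjusted p under 0.05, beside 15.4% and 17.5% of all tested genes. A retrovirus-related gene, LOC_Os07g11400, rose on TPM, with 17.3, 19.7 and 5.62 TPM in sgs3, against 1.65, 5.77 and 1.98 TPM in WT (adjusted p = 0.0449, limma). LOC_Os07g11490, which has no description, fell on TPM, with 4.86, 5.93 and 12.6 TPM in sgs3, against 30.3, 17.1 and 28.0 TPM in WT (adjusted p = 0.0436, limma). Among these 8 neighbours, groups without overlap on TPM were found for 1 gene higher in sgs3 and for 1 lower, beside 3.68% and 52.6% of all tested genes. The untested loci of the stretch give no comparison.

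Splicing added 1 event to this account. Of 12346 deposited splicing events, 1 lay in a gene of the set, a retained intron in RAG2 (LOC_Os07g11380). The exon that keeps the intron spans chr7:6258913-6259695 on the minus strand, 783 bases, in the authors' coordinates, and no source used here names their genome build. The intron was kept at inclusion levels of 0.933, 1 and 0.94 in 3 sgs3 libraries, against 0.901 and 0.898 in 2 WT libraries. The groups did not overlap, and the libraries behind the values carried no replicate number. These levels rest on 597, 936 and 591 reads in sgs3 and on 384 and 262 in WT. The groups are those of the headings over the inclusion levels. The headings over the reads are the other way round. In all 3126 retained introns with 3 sgs3 and 2 WT entries, the reads headed WT gave the inclusion levels headed sgs3. The tolerance was 0.0005, and a missing level counted as a match. Where genes differed at least 2-fold in TPM, reads headed WT followed the TPM of sgs3 in 1350 of 1457 events (92.7%). In 1 sgs3 library 0 of 936 reads were spliced, which allows a share of up to 0.321% of reads, for counting error only. The authors' deposited table gave a difference of 0.058 with an FDR of 6.63e-04, and 5.85% of its 3126 retained introns had an FDR under 0.05.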

How the data were processed

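RNA sequencing of grains gave 3 sgs3 and 3 WT libraries, grouped by the genotype labels. The authors deposited TPM per gene, made relative to transcript length and library total, and the depth behind them is unknown. Per the submitters' processing notes, which give no roles, the tools included RSEM, DESeq2 1.12.4, Bowtie2, StringTie and HISAT2 2.1.0. Per the file headers, the splicing tables hold inclusion levels as a fraction from 0 to 1, with a p-value and FDR that the authors computed. Of 3157 retained introns, 3126 had entries for 3 sgs3 libraries but only 2 WT libraries, missing levels included. Which WT library is absent is not stated. Genes with at least 1 TPM in at least 3 libraries were tested on log2(TPM + 1) with limma 3.58.1 (R 4.3.3, mean-variance trend, 4 residual degrees of freedom before moderation), Benjamini-Hochberg adjustment over all 16352 genes and a threshold of 0.05. The fit was tested on simulated data first. The second scale divided each library by its median-of-ratios factor. Figures and summaries used Python 3.11.15, pandas 2.3.3 and matplotlib 3.10.9.

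The genes, the lists and the tests were chosen with earlier results of these data known. Lists were drawn by words in the gene descriptions, endosperm markers by locus. Each gene of the set with a mean of at least 10 TPM in either group is described in full, and of another list at most the gene with the smallest p and that with the highest mean are named. Exceptions chosen after values were seen are RA5 as a common denominator, the second transcription factor among the endosperm markers and the neighbouring loci. A list for thionins and defensins is not reported, because its words also matched enzymes such as cystathionine beta-lyase. Alternatives were other scalings, filters, pseudocounts, thresholds, a fit without trend, a replicate block and leaving out each library. With 3 libraries a group, an exact two-sided permutation test cannot go below 0.1, so single values such as ratios have no test. Sequences are not used here.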

Additional observations from a re-analysis of the deposited data

How the results depend on the processing

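The 10 tested genes had 210 log2 fold changes under the alternatives, of which 192 kept the direction and the side of the threshold, 8 gained a call and 10 changed sign. CMa (LOC_Os07g12080) turned positive after median-of-ratios scaling (0.55), after scaling to genes outside the set and the storage proteins (0.11), and in that first scaling without sgs3 replicate 1 (0.27), 2 (0.45) or 3 (0.95) or WT replicate 1 (0.10), 2 (0.92) or 3 (0.62). Alpha-amylase inhibitor 4 (LOC_Os07g12090) had -0.14 without sgs3 replicate 2 and -0.10 without WT replicate 1, and leaving out each library gave -0.14 to 0.42 on TPM. The log2 ratio of summed TPM was 2.21 after median-of-ratios scaling.

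Of the set, 1 gene was called as higher with a mean of at least 5 TPM or with no trend, 3 at an adjusted p under 0.1, and 0 to 3 when leaving out each library. The 3 came without WT replicate 2. None was called as lower in any of these fits. Over all genes, 253 rose and 4295 fell on TPM. With no filter these counts were 42 and 65, with a pseudocount of 5 they were 80 and 163, and at an adjusted p under 0.1 they were 439 and 8115. With a mean of at least 5 TPM 152 rose. After median-of-ratios scaling 169 fell, and after scaling to genes outside the set and the storage proteins 202 fell. Leaving out each library gave 5 to 383 that rose and 9 to 7275 that fell on TPM. After median-of-ratios scaling, leaving out sgs3 replicate 1, 2 or 3 gave 12, 13 and 1000 risen and 38, 39 and 1352 fallen. Leaving out WT replicate 1, 2 or 3 gave 141, 306 and 103 risen and 36, 49 and 15 fallen. The cause was not tested. With the replicate block 50 genes rose and 82 fell, none of them in the set. Same-numbered libraries deviated from their group means with correlations of -0.527, 0.212 and -0.091 for replicates 1, 2 and 3. With 3 libraries a group these values cannot tell whether the numbers pair the libraries, and the labels do not say so. Reads behind a TPM are unknown, which limits the precision of the low genes.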

Other observations

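Genes that share the inhibitor domain or the allergen name, but not the descriptions that define the set, were also looked at. LOC_Os07g11310 has no description, carries the same Tryp_alpha_amyl and Gliadin domains as RA5, and is the first locus of the same stretch of chromosome 7. It had 3273, 3347 and 1791 TPM in sgs3, against 126, 1980.5 and 684 TPM in WT. The groups overlapped, sgs3 replicate 3 being below WT replicate 2, and limma gave a log2 fold change of 2.28 ± 0.92 (SE; adjusted p = 0.0784). This locus was singled out after its values were seen. Of 50 tested genes with the Tryp_alpha_amyl domain outside the set, 4 fell and none rose on TPM, beside 26.3% and 1.55% of all tested genes. After scaling 2 of the 50 rose and 1 fell, beside 1.6% and 1.03%. At an unadjusted p under 0.05 by limma, 15 were then higher and 4 lower, beside 15.4% and 17.5% of all tested genes. The log2 fold change was above 0 for 24 of the 50 on TPM and for 38 after scaling, beside 12.6% and 49.3%. This list was added after values were seen and holds prolamins as well. In the globulin list, whose word also matched genes that are no storage proteins, 2 of 8 tested genes fell on TPM, beside 26.3% of all tested genes. None fell after scaling. There 2 were higher and 1 lower at an unadjusted p under 0.05 by limma, beside 15.4% and 17.5% of all tested genes.

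The words taken for other rice allergens (glyoxalase I, which detoxifies methylglyoxal, and beta-expansins, which loosen cell walls) matched 25 genes, of which 10 were tested. Whether each matched gene encodes an allergen of the grain was not checked. Of these, 4 fell on TPM and none rose, beside 26.3% and 1.55% of all tested genes. The median log2 fold change was -1.26, beside -0.86 over all tested genes. None passed limma's test after scaling. There 1 was higher and 1 lower at an unadjusted p under 0.05, beside 15.4% and 17.5% of all tested genes. The most abundant, a lactoylglutathione lyase listed as an allergen (LOC_Os08g09250), had 237 ± 36.0 TPM in sgs3 and 625 ± 201 TPM in WT (SD, n = 3 each; limma adjusted p = 0.0450). After scaling its log2 fold change was -0.27 (adjusted p = 0.609). A gene of the same description with the smallest p of the list (LOC_Os05g22970) had 27.8 ± 16.9 TPM in sgs3 and 199 ± 153 TPM in WT (SD, n = 3 each; limma adjusted p = 0.0436). The inactive beta-amylase 9 gene LOC_Os07g47120, the most abundant of its list, had 25.4, 38.6 and 17.2 TPM in sgs3, against 0.98, 16.6 and 6.06 TPM in WT. Its groups did not overlap, and it missed the threshold (limma adjusted p = 0.0560).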
